A study of Homo sapiens with 18 samples.

Results

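The genes described here are 49 human genes that build, fire and feed the DNA replication fork, or that switch on at entry into S phase. They were chosen by symbol, with no measured value in the rule, and all 49 were found by symbol and Entrez ID in each of 3 tables, out of 17252 genes that the 3 tables have in common. RNA was sequenced from MCF10A cells, a non-tumorigenic line of human mammary epithelium, in 18 libraries. One experiment held 3 libraries of a CBFB knockout (CBFB KO) and 3 of its own wild type (WT), and another held 4 libraries each of RUNX1 knockout 1 (KO1), RUNX1 knockout 2 (KO2) and WT. CBFB is the partner that strengthens the DNA binding of RUNX1, a transcription factor. All cells were untreated and grew at a limited passage number in the same medium with horse serum, EGF, insulin, hydrocortisone and cholera toxin. Each knockout was made with CRISPR-Cas9 and grown from a single cell, so that 1 clone stands for the CBFB knockout and 2 clones for the RUNX1 knockout. The effect of a lost gene and the history of a clone cannot be told apart.

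The value used for each gene is the authors' mean of normalized counts over all libraries of a table, that is, over 6 libraries for CBFB KO with its WT and over 8 libraries for each RUNX1 clone with WT. No table gives a value per library, so no mean below carries an SD or a test, and no change of a knockout against WT is given here. What the means allow is the level of each gene, the comparison of the RUNX1 clones through the WT libraries that their tables have in common, and the comparison of the CBFB experiment with the RUNX1 experiment. The deposited means summed to 20214423, 18050386 and 16467400 normalized counts for CBFB, KO1 and KO2. These totals are only a guide to depth, because each library was scaled before averaging. Genes read once, in 1 library alone, gave size factors (the depth of a library relative to its table) of 0.657 to 1.18 for CBFB, 0.921 to 1.101 for KO1 and 0.562 to 1.29 for KO2. Defining markers of mammary basal epithelium were high, with KRT5, a basal keratin, at 87894, 101688 and 95221 in the CBFB, KO1 and KO2 tables. KRT14, another basal keratin, was at 4112 and 9515 in the CBFB and KO1 tables and was not analysed here for KO2. Other basal markers differed widely between the tables. KRT17 was at 10527, 47912 and 68408, while the integrin ITGA6 (22347, 12515 and 9288) and the transcription factor TP63 (1606, 953 and 730) ran the other way. Markers of blood and endothelium (PTPRC, CD3E, PECAM1 and CDH5) were below 1 in every table that held them, and CD14 was between 128 and 142. RUNX1 mRNA was at 1606, 922 and 839 and CBFB mRNA at 897, 1058 and 931 in the CBFB, KO1 and KO2 tables. As knockout and WT libraries are pooled in these means, they check no label.

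DNA replication starts at origins that are licensed in G1. The origin recognition complex (ORC), CDC6 and CDT1 load the ring-shaped MCM2-7 helicase, and the kinase CDC7, MCM10, CDC45 and the GINS complex turn the ring into an active helicase at the start of S phase. RPA coats the exposed single strands, primase and DNA polymerase alpha lay down primers, the RFC clamp loader places the PCNA clamp, and polymerases delta and epsilon extend the strands with nucleotides made by ribonucleotide reductase, thymidylate synthase and thymidine kinase. Many of these genes are switched on together by E2F1 and E2F2 when the RB protein is inactivated by cyclin kinases, and are turned down again by the repressors E2F7 and E2F8. In proliferating epithelial cultures their mRNAs follow the share of cells in S phase. In bulk RNA, fewer cells in S phase and less RNA per cell cannot be told apart.

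Of the 5 motifs searched in the members' promoters, E2F letters near the start of transcription stood furthest above their share in other promoters, although 21 of the 42 promoters lacked them. The windows below were taken from RefSeq promoters (GRCh38.p14), 300 bases from 250 before to 50 after each start, for 42 of the 49 members. Each is 30 bases, written 5′ to 3′ on the strand of the gene, with the E2F letters in capitals. They are shown for the licensing factor CDC6, the activator E2F1 itself, 4 subunits of the MCM ring, the sliding clamp and a polymerase subunit, and show how close to the start, and in either orientation, the letters lay.
CDC6, chr17:40287875-40287904, plus strand: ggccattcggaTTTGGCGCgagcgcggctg
E2F1, chr20:33686387-33686416, minus strand: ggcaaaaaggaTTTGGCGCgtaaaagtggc
MCM2, chr3:127598402-127598431, plus strand: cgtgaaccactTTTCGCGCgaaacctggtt
MCM3, chr6:52284728-52284757, minus strand: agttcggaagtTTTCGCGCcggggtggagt
MCM6, chr2:135876577-135876606, minus strand: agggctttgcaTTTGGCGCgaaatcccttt
MCM6, chr2:135876515-135876544, minus strand: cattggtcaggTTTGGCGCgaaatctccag
MCM7, chr7:100101388-100101417, minus strand: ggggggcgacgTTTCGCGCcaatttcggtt
PCNA, chr20:5126663-5126692, minus strand: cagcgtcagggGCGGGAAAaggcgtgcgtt
POLE2, chr14:49688201-49688230, minus strand: ctgcggcggtgGCGCCAAAtcgcaaatatg

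The letters searched for E2F were TTTGGCGC, TTTGCCGC, TTTCGCGC and TTTCCCGC on either strand. They were found in 21 of the 42 members (50%), against 3.325% of all 27305 promoters and 5.455% of the 10485 promoters of expressed genes, those whose mean reached 10. In 18 of the 21 members a match lay no more than 60 bases before the start or after it. CDC6 carried its letters 7 bases after the start, MCM3 4 bases before it, MCM7 9 bases before it and E2F1 20 bases before it. Of the 21 members 4 had 2 matches that did not overlap. MCM6 was among them, with the same 8 letters at 152 and at 90 bases before the start. Overlapping matches were not counted, such as GCGCGAAA (TTTCGCGC on the other strand) across the end of the capitals in the windows of MCM2 and MCM6. The promoters of E2F8, MCM4, RPA2, RPA3, MCM5, CCNE2 and GINS4 were not searched.

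**Figure D1:**
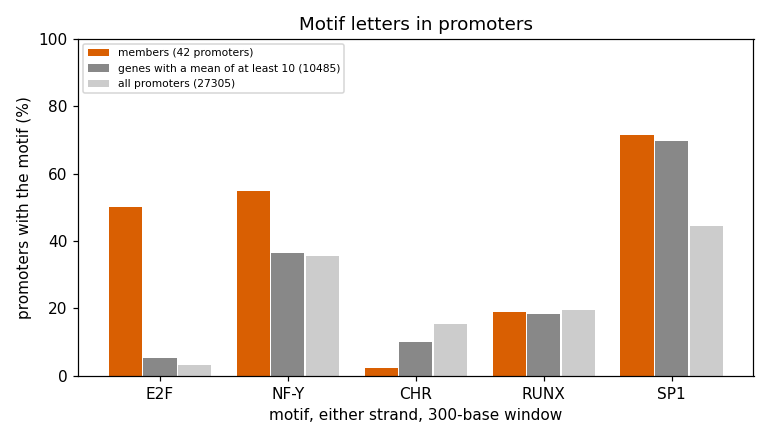
Share of promoters (percent, vertical axis) that held the letters of 5 motifs (horizontal axis) on either strand of the 300-base window, for 42 members, for 10485 expressed genes (mean of at least 10) and for all 27305 promoters. The E2F bar of the members reaches 50% where the other bars stand at 5.455% and 3.325%, while the 3 RUNX bars lie between 18.42% and 19.44%.

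The other motifs set the members apart less, or not at all. The NF-Y box CCAAT, bound by a factor of many cell cycle promoters, was in 54.76% of the members, 35.7% of all promoters and 36.61% of those of expressed genes. The SP1 box GGGCGG was in 71.43% of members, 44.59% of all promoters and 69.57% of those of expressed genes, so that the members' share was near that of expressed genes. The CHR element TTTGAA, known from genes of G2 and mitosis, was in 1 member (RRM1, 2.381%), against 9.986% of expressed genes. RUNX letters (TGTGGT or TGCGGT on either strand) were in 8 of 42 members, 19.05%, against 18.42% of expressed genes and 19.44% of all promoters. In the 150 bases nearest the start, RUNX letters were in 2 of 42 members (4.762%), against 9.68% of expressed genes and 10.32% of all promoters. With so few promoters this share is uncertain, and the difference was not tested. The 8 with RUNX letters in the whole window were MCM2, MCM10, ORC6, POLD1, POLE, PRIM1, RFC2 and TYMS. The motifs can overlap, and the letters are a description of the sequence and not of binding. The windows of PRIM1, where the letters lay nearest to the start (10 bases before it), and of MCM2, where they lay 199 bases before it, are shown with the RUNX letters in capitals.
PRIM1, chr12:56752315-56752344, minus strand: ccgccaattccTGTGGTaatccttaccgtg
MCM2, chr3:127598201-127598230, plus strand: ctccagctcccACCACAgcgcaggcgagcg

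All 49 genes were well expressed. The lowest mean of any member was 129 normalized counts (E2F8 in the KO2 table) and the highest 9032 (RRM2 in the CBFB table), and every member was above 100 in each of the 3 tables. The median member was at 1281, 1112 and 1051 normalized counts in the CBFB, KO1 and KO2 tables, where the median of all genes was 244, 210 and 187. Together the 49 genes held 0.484%, 0.459% and 0.470% of the summed means of these tables. The members' share of the summed means thus stayed within a narrow range over the 3 tables, while single genes inside the module moved by more. Each table pools knockout with WT libraries, so this range does not show how far the share differed between knockouts or from WT.

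The MCM2-7 helicase is a ring with 1 copy of each subunit. MCM2 was at 3464, 2835 and 2563 normalized counts in the CBFB, KO1 and KO2 tables. MCM3 was at 5378, 4834 and 4501. MCM4 was at 5751, 4181 and 3700, the widest spread of the ring as deposited. The means of MCM5 were 3263, 2899 and 2722, and those of MCM6 3103, 2729 and 2510. MCM7 was at 6052, 5991 and 5839, the narrowest spread as deposited. As deposited, all 6 subunits stood in the same order of tables, CBFB highest and KO2 lowest.

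The CBFB table was highest for most members, as in the ring. Of the 49 genes, 43 were highest in the CBFB table, 4 were lowest there and 2 lay between the RUNX1 tables. Among the 43, CDT1, RFC2, RFC4, FEN1 and TK1 were higher in the KO2 than in the KO1 table, unlike the ring. The share of all genes highest in the CBFB table is not given here. The count of 43 is therefore not read as a trait of the members. The means are not on a common scale. The median ratio of the CBFB table to the RUNX1 tables over 10136 genes was 1.23. That of the KO2 table to the KO1 table over 10174 genes was 0.931. The comparisons further on are therefore relative to the median gene.

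**Figure D2:**
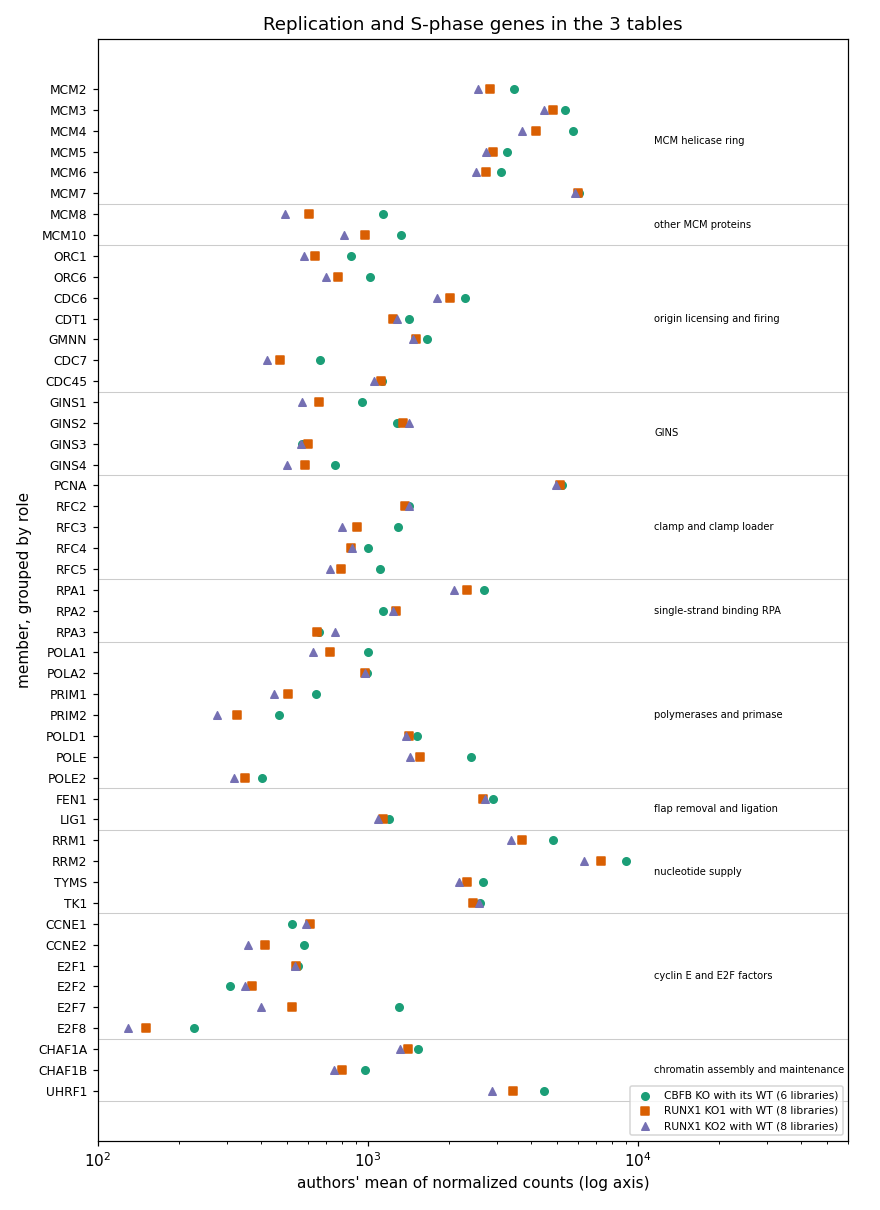
Authors' mean of normalized counts (log axis) of each of the 49 members, grouped by role, in the table of CBFB KO with its WT (6 libraries), RUNX1 KO1 with WT (8 libraries) and RUNX1 KO2 with WT (8 libraries), as deposited. For 43 members the CBFB point lies highest (share of all genes not given here), and E2F7 shows the widest gap, 1298 against 523 and 400.

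Among the origin factors, ORC1, the largest subunit of ORC, was at 867, 633 and 578 in the CBFB, KO1 and KO2 tables, and ORC6, the smallest subunit, at 1020, 771 and 698. CDC6, which joins ORC to load the ring, was at 2290, 2018 and 1805. CDT1, which brings the ring to ORC, was at 1412, 1239 and 1278, and was higher in the KO2 than in the KO1 table. Its inhibitor geminin (GMNN), which prevents a repeated round of licensing, was at 1651, 1503 and 1471. The origin kinase CDC7 was at 665, 473 and 423. CDC45, the part of the active helicase that joins MCM and GINS, was at 1130, 1112 and 1051.

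The 4 GINS subunits did not share a pattern. GINS1 was at 953, 660 and 569 in the CBFB, KO1 and KO2 tables, and GINS4 at 756, 582 and 499. GINS2 ran the other way, at 1281, 1350 and 1420. GINS3 was at 571, 600 and 563. Of the other MCM proteins, MCM10, which is needed to open the loaded ring, was at 1329, 971 and 816. MCM8, which acts with MCM9 in recombination at broken forks and is not part of the ring, was at 1138, 607 and 494.

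The PCNA clamp was at 5228, 5116 and 4963. Of its loader, RFC2 was at 1417, 1373 and 1414 and RFC4 at 1000, 866 and 871, nearly level between the RUNX1 tables as deposited. Relative to the median gene both were higher in the KO2 table. RFC3 was at 1293, 911 and 799 and RFC5 at 1105, 796 and 723. RPA1, the large subunit of the single-strand binding complex, was at 2697, 2319 and 2088. RPA2 was at 1137, 1271 and 1235 and RPA3, the small subunit, at 659, 645 and 755, so that RPA3 was the only RPA subunit with its highest mean in the KO2 table.

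Of the polymerase genes, POLA1, the catalytic subunit of DNA polymerase alpha, was at 996, 722 and 625, and its partner POLA2 at 994, 978 and 971. The primase subunits were at 640, 504 and 449 (PRIM1) and at 467, 328 and 275 (PRIM2). POLD1, the catalytic subunit of polymerase delta, was at 1516, 1419 and 1385. POLE, that of polymerase epsilon, was at 2403, 1552 and 1430, while its accessory subunit POLE2 was at 404, 352 and 318. Of the enzymes that finish the lagging strand, the flap nuclease FEN1 was at 2900, 2671 and 2702 and the ligase LIG1 at 1193, 1131 and 1089.

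The enzymes of nucleotide supply were among the members with many reads. RRM2, the S-phase subunit of ribonucleotide reductase, was at 9032, 7272 and 6318, and its partner RRM1 at 4841, 3704 and 3370. Thymidylate synthase (TYMS) was at 2666, 2322 and 2167 and thymidine kinase (TK1) at 2592, 2445 and 2581. Cyclin E1 (CCNE1), which activates CDK2 at the G1/S boundary, was at 524, 608 and 590, and cyclin E2 (CCNE2) at 577, 417 and 358. The activator E2F1 was at 550, 540 and 535 and the activator E2F2 at 309, 371 and 350. The repressors E2F7 (1298, 523 and 400) and E2F8 (227, 151 and 129) were both higher in the CBFB table. Of the chromatin genes, the histone chaperone subunits CHAF1A (1532, 1407 and 1307) and CHAF1B (971, 799 and 747) load histones behind the fork. UHRF1, which reads hemimethylated DNA for maintenance of methylation, was at 4500, 3429 and 2887.

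Read counts of different genes can be compared only per length, so each mean was divided by the length in kilobases of the longest annotated transcript and averaged over the 3 tables. On this scale 47 of the 49 members were above the median gene and 14 were above the 90th percentile of all genes. PCNA was highest at 3755 normalized counts per kb, with 3847, 3765 and 3652 in the 3 tables. RRM2 followed at 2053, MCM7 at 1933, MCM3 at 1529, TK1 at 1511 and TYMS at 1435. MCM3 and TK1 are neighbours whose ranges over the tables overlap (1403 to 1676 against 1454 to 1542), so their order is not settled. The ranges of RRM2 (1720 to 2459) and MCM7 (1893 to 1962) also overlap, with MCM7 above RRM2 in the KO2 table, and TYMS was above TK1 in the CBFB table. At the low end stood E2F8 at 48.0, E2F2 at 66.2, MCM8 at 99.7, E2F7 at 129, CCNE2 at 135 and POLA1 at 142 per kb. In the CBFB table E2F2 (59.6) was below E2F8 (64.6). The 4 E2F genes and 2 cyclins, the regulators, lay between 48.0 and 281 per kb, below every subunit of the ring. So did the GINS subunits (158 to 505), the polymerase and primase genes (142 to 409), and MCM8 and MCM10 (99.7 and 226). This depended on the length used. Per kb of the median annotated transcript, POLE (2447) and GINS2 (2161) were above MCM3 (1944), then the lowest of the ring.

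**Figure D3:**
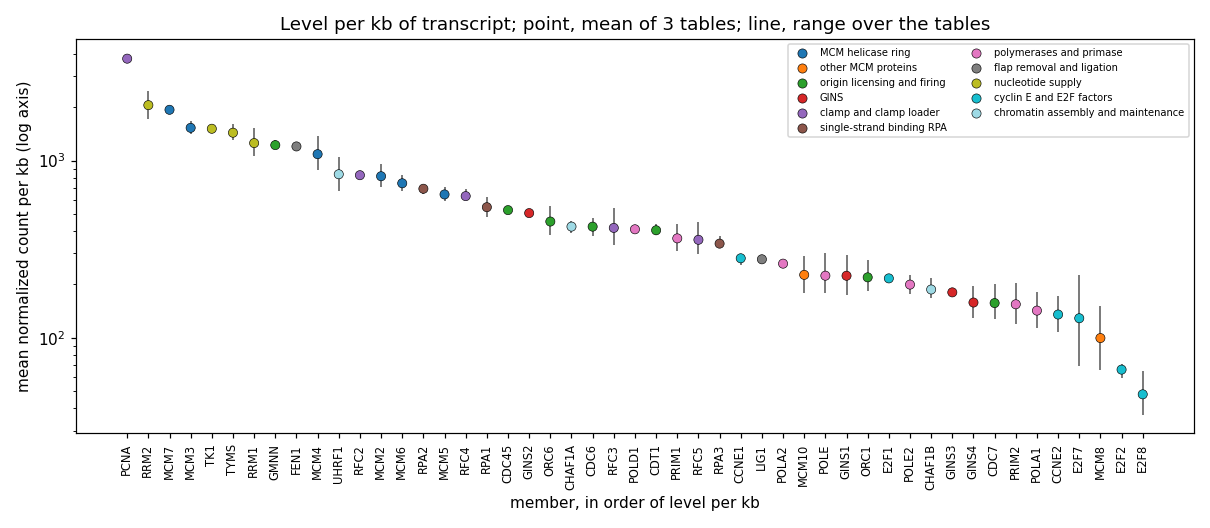
Mean normalized count per kb of the longest annotated transcript (log axis) of the 49 members in falling order, coloured by role; points are means over the 3 tables and lines run from the lowest to the highest table, not an error. PCNA stands first at 3755 and E2F8 last at 48.0 in the mean of the tables, though not in the CBFB table alone.

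Subunits that form 1 complex differed per kb. Within the MCM ring the range ran from 644 (MCM5) to 1933 (MCM7), a 3.002-fold range, and it was 2.77-fold, 3.08-fold and 3.20-fold in the CBFB, KO1 and KO2 tables alone. The 3 RPA subunits lay between 340 (RPA3) and 693 (RPA2), the 4 GINS subunits between 158 (GINS4) and 505 (GINS2), and the polymerase and primase genes between 142 (POLA1) and 409 (POLD1). The scaling by length decides much of this order. With the median length of a gene's annotated transcripts in place of the longest, RRM2 was highest at 11709 per kb. The MCM ring then spanned 2.66-fold with its order changed, MCM5 highest at 5177 and MCM3 lowest at 1944. The range of the RPA subunits went from 2.04-fold to 4.34-fold, and that of the polymerase and primase genes from 2.88-fold to 10.05-fold. RefSeq names pseudogenes for 9 of the members (ORC1, PCNA, RFC3, RFC5, RPA2, RPA3, FEN1, RRM2 and TYMS), and reads may be split between such copies, so the levels of these 9 are less certain.

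To compare the RUNX1 clones, it was first asked whether their tables hold the same WT libraries. A gene read only once, in 1 library, has a mean fixed by the size factor of that library, so a WT library used in both tables gives the same genes a matched pair of means. There were 4 such pairs, each with 58 to 72 genes, and the next pair had 9. Thus 4 libraries stood in both tables, as many as the WT group has, and a gene's ratio of the KO2 to the KO1 table differs from that of other genes through the clones and their scaling. As WT is in both means, the table ratio is nearer to 1 than the ratio of the clones themselves. Ratios are given on the log2 scale with the median gene at 0, and a gene was called where it was at least 25% higher or 20% lower than the median gene (the same distance in either direction on the log2 scale).

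Few of the S-phase genes passed this fold between the RUNX1 tables. Of the 49 members 1 was higher in the KO2 table by the fold, RPA3, against 7.03% of 13123 genes, and 0 were lower, against 1.17% of those genes. The 1 member is 2.04% of the module. RPA3 had means of 645 and 755, a log2 ratio of 0.33 (1.26-fold), at the 93rd percentile of genes, with 0.06 for RPA2 and -0.05 for RPA1. Its call held with the tables scaled to the same sum (0.36) and against genes of like GC content (0.34). It did not hold as deposited (0.23), on the scale of the shared WT libraries (1.24-fold) or against genes of like transcript length (0.23). The median member was at -0.01, with an SD over the members of 0.110, and the median of all genes was at 0.00 with an SD of 0.183. All genes here are those with means of at least 10, while every member was above 100. No background of genes at a like level is given. Of the 49 members 23 were above the median gene and 33 lay between the 25th and the 75th percentile of genes.

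At the upper end RPA3 was followed by TK1 (0.18), GINS2 (0.18), CDT1 (0.15) and RFC2 (0.15). At the lower end stood E2F7 (-0.28, 0.822-fold, at the 1.77th percentile of genes), then MCM8 (-0.19), MCM10 (-0.15), PRIM2 (-0.15) and UHRF1 (-0.14). E2F7 and E2F8 were thus both below the median gene (E2F8 at -0.13). E2F1 (0.09) and E2F2 (0.02) were at or above it. Outside the members, E2F3 was at -0.18, E2F4 at 0.00, E2F5 at -0.05 and E2F6 at -0.02. The MCM ring stayed near the median gene, from -0.07 (MCM4) to 0.07 (MCM7). FEN1 (0.12) and LIG1 (0.05) were both above the median gene. The 49 genes in order, with the spread of all genes behind them, are in the plot of the KO2 to KO1 ratios.

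**Figure D4:**
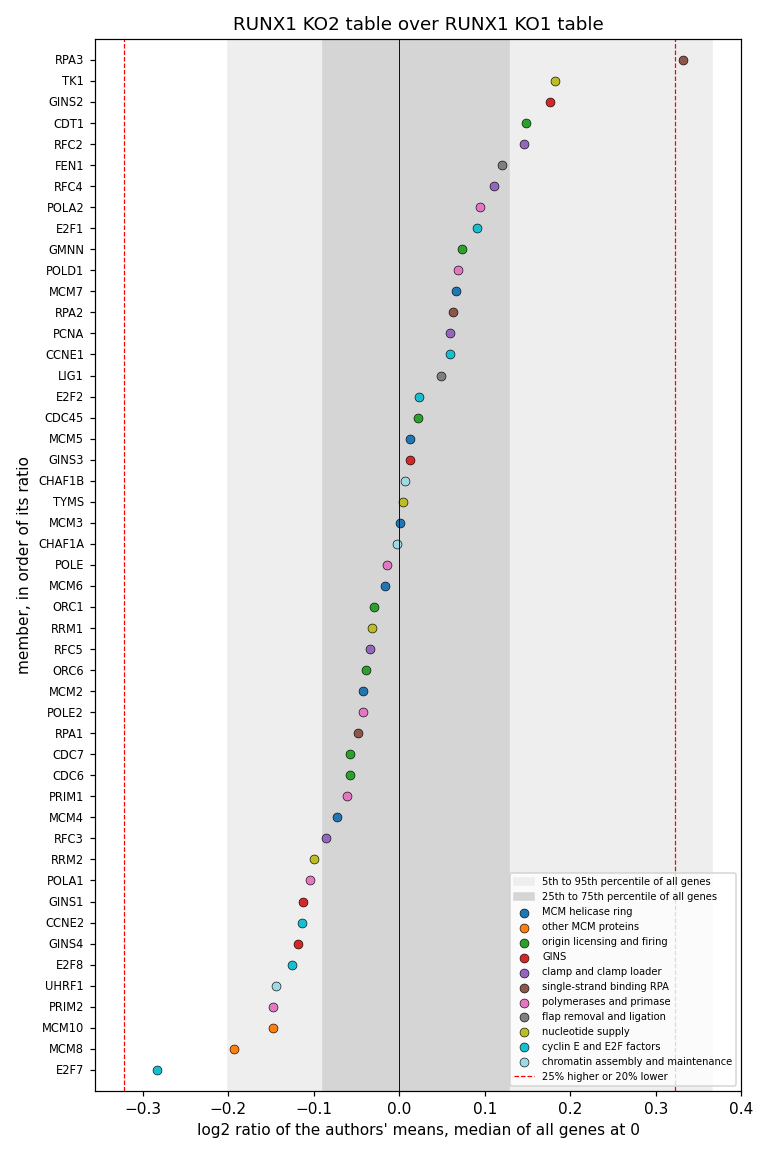
Log2 ratio of the KO2 table mean to the KO1 table mean, with the median of all genes at 0 (horizontal axis), for the 49 members in order; bands show the 5th to 95th and the 25th to 75th percentile of all genes and dashed lines 25% higher and 20% lower. RPA3 (0.33) alone passes a line, and E2F7 (-0.28) is the lowest.

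Because the WT part of both means is the same, it cancels in their difference, and the mean of KO2 minus the mean of KO1 follows for each gene once the tables are put on 1 scale. The matched single reads gave this scale (a log2 shift of -0.0841, between -0.0990 and -0.0765 over the 4 libraries). On it, 18 members were higher in the KO2 clone and 31 lower, which is 63.3% of the members beside 54.0% of all 13123 genes. The sign was the same under all 4 scales for 16 of the higher and 28 of the lower members and depended on the scale for 5 (CHAF1B, GINS3, MCM5, CDC45 and E2F2). In normalized counts, KO2 minus KO1 was 311 for RPA3 (303 to 328 over the 4 scales), in a table where its mean over KO1 and WT was 645. TK1 was 583 counts higher in KO2 and GINS2 310 counts higher. The difference was -1150 for RRM2, whose KO1 table mean was 7272, and -737 for UHRF1, whose KO1 table mean was 3429. For E2F7 it was -198 (-202 to -189) beside a KO1 table mean of 523. These differences have no replicate error, so whether they exceed the spread between libraries could not be tested.

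Transcript length and GC content moved with this ratio. Across genes, Spearman's rho of the KO2 to KO1 ratio with length was -0.448 over 12915 genes and -0.482 over the 49 members, and with GC content 0.399 and 0.592. Genes share libraries, so these values describe the tables and carry no p. Their part in the order of the members was not tested.

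The CBFB table was then compared with the mean of the RUNX1 tables. Its libraries come from another experiment with its own WT and another knockout, and these cannot be told apart. The basal markers given above, such as KRT17 and ITGA6, also differed between these tables, and their part in the result was not tested. Relative to the median gene, 6 members were higher in the CBFB table by the same fold, against 23.7% of 12972 genes, and 5 were lower, against 23.5% of those genes. These are 12.2% and 10.2% of the members, and whether the shares differ from the background was not tested. This background, too, holds genes with means of at least 10 and was not matched to the level of the members. As deposited, without centring, 22 members were higher and 0 lower, since the median ratio over all genes was 1.23. The median member was at -0.03 with an SD of 0.324, and the median of all genes was at 0.00 with an SD of 0.525. Of the members 36 lay between the 25th and the 75th percentile of genes.

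E2F7 stood furthest out, with means of 1298 in the CBFB table and 523 and 400 in the RUNX1 tables, a log2 ratio of 1.20 (2.30-fold). MCM8 followed at 0.76 (1.69-fold). The other 4 members past the fold were E2F8 (0.41), POLE (0.40), GINS1 (0.34) and PRIM2 (0.34). Against genes of like GC content GINS1 and PRIM2 fell short of the fold, both at 0.16, and against genes of like transcript length POLE did, at 0.02. E2F7 and E2F8 were thus both high, and E2F2 and E2F1 were at -0.51 and -0.26. Of the E2F genes outside the members, E2F3 was at 0.42, E2F4 and E2F6 at 0.04 and E2F5 at 0.07. E2F2 was at 0.6999-fold, with means of 309 against 371 and 350. It was the lowest member with the median gene at 0 and against genes of like length (-0.69). Against genes of like GC content it was at -0.30, short of the fold. RPA3 (-0.39), RPA2 (-0.39), GINS2 (-0.36), CCNE1 (-0.34) and GINS3 were lower and past the fold in that setting. With the median gene at 0, the other 4 members past the fold on that side were CCNE1 (-0.48), RPA2 (-0.43), GINS2 (-0.41) and RPA3 (-0.38). In that setting GINS3 lay just short of the fold at -0.32. Against genes of like length CCNE1 (-0.23), RPA2 (-0.15) and RPA3 (-0.13) lost their calls, and with the tables scaled to the same sum RPA3 did.

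Some complexes were split by the median gene and others were not. GINS1 (0.34) and GINS4 (0.19) lay above the median gene, and GINS2 (-0.41) and GINS3 (-0.32) below it. In the clamp loader RFC3 (0.30) and RFC5 (0.25) were above, RFC4 (-0.09) and RFC2 (-0.27) below. POLA1 was at 0.27 and its partner POLA2 at -0.26, and POLE was at 0.40 where POLE2 was at -0.02. On 1 side together lay RRM1 (0.16) and RRM2 (0.12), PRIM1 (0.13) and PRIM2 (0.34), and ORC1 (0.22) and ORC6 (0.18), all above. Of the RPA subunits, RPA2 and RPA3 were below, and RPA1 was at the median gene (0.00). Cyclin E1 and cyclin E2, alternative partners of CDK2, were at -0.48 and 0.28. The MCM ring ran from -0.26 (MCM7) to 0.25 (MCM4). Members whose promoters held E2F letters had a median of -0.05 and those without 0.04, and the 8 with RUNX letters had a median of 0.10 against -0.07 for the 34 without. The split by NF-Y letters was wider, with a median of 0.13 for the 23 members with them and -0.14 for the 19 without. For the ratio of the KO2 to the KO1 table the medians were 0.00 and -0.03 with and without E2F letters, -0.03 and 0.00 with and without RUNX letters, and -0.03 and 0.05 with and without NF-Y letters. None of these splits was tested.

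**Figure D5:**
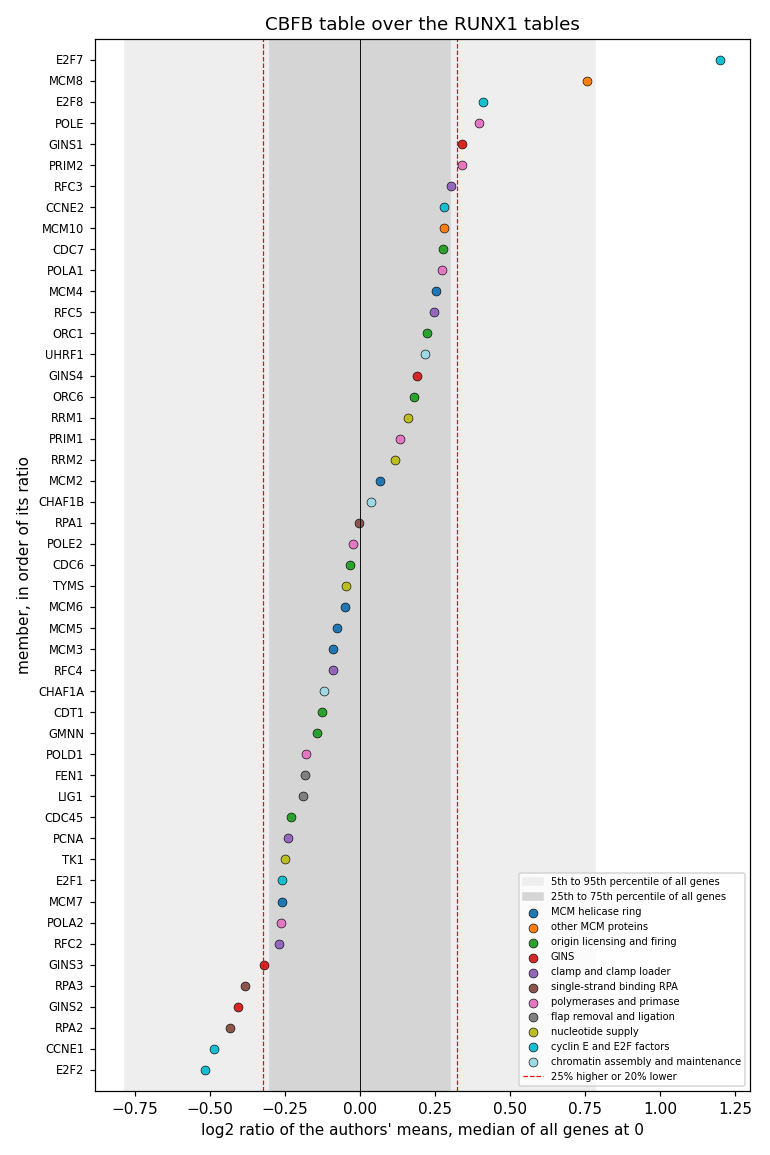
Log2 ratio of the CBFB table mean to the mean of the RUNX1 tables, with the median of all genes at 0 (horizontal axis), for the 49 members in order; bands show the 5th to 95th and the 25th to 75th percentile of all genes and dashed lines 25% higher and 20% lower. E2F7 (1.20) lies beyond the 95th percentile, 6 members lie past the upper and 5 past the lower line.

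Length and GC content moved with this ratio in the opposite sense. Spearman's rho with length was 0.463 over 12764 genes and 0.407 over the 49 members, and with GC content -0.471 and -0.552. Against genes of like length, 11 members were higher (22.4%, against 18.3% of all genes) and 2 lower (4.08%, against 19.9%), and POLE, the longest transcript among the members at 8011 bases, fell from 0.40 to 0.02. Against genes of like GC content, 5 were higher and 5 lower (10.2% each, against 19.6% of all genes in either direction). E2F7, E2F8, MCM8 and GINS2 were past the fold both by length and by GC content and with the median of all genes at 0. The part of length and GC content in single members was not tested further.

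A list of 59 other replication and S-phase genes was set beside the members. It holds further ORC, polymerase and RFC subunits, fork protection, RNase H2, nucleotide and histone supply, and the RB family. Of these, 57 were compared, and POLD4 and POLE4 were not analysed here. In the KO2 over KO1 ratio, 2 of the 57 (3.51%, against 7.03% of all genes) were higher by the fold and 0 lower (against 1.17%), with a median of -0.06. The 2 were the RNase H2 subunit RNASEH2C (0.41) and DTYMK (0.34), a kinase that makes dTDP. In the CBFB over RUNX1 ratio 17 were higher (29.8%, against 23.7% of all genes) and 4 lower (7.02%, against 23.5%), with a median of 0.16. Whether these shares differ from the background was not tested. The highest were ATAD5 (0.84), which unloads PCNA, and RB1 (0.77), and RNASEH2C was lowest at -0.49.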

How the data were processed

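RNA-seq libraries of MCF10A cells were processed by the authors with Trimmomatic, STAR and DESeq2 on hg19 per the labels' processing notes, with versions not given in the sources used here. The labels name an mRNA library kit and the study's methods ribosomal RNA removal. The deposited tables pair each gene with a mean of normalized counts, a signal that the authors averaged over knockout and WT libraries, and with 5 columns of the authors' own comparison of knockout against WT (log2 fold change, its SE, a statistic, a p-value and an adjusted p-value). These 5 columns were not used, and no change against WT was computed. The number of libraries limits the precision of each mean, and the depth per library is not known beyond the relative size factors.

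Tables were joined by Entrez ID. Ratios were taken on the log2 scale, centred on the median over genes with a mean of at least 100, for genes with a mean of at least 10, and called where at least 25% higher or 20% lower. Shared libraries were read from genes with a single read, where a pair of means needed at least 15 genes, a minimum set on simulated data. The procedure was tested on simulated counts. Levels per kb used the longest transcript in GENCODE 29 (97.2% of genes and all 49 members had a length). Promoters came from RefSeq, GRCh38.p14, while the authors' build was hg19. Other folds, filters, scalings and lengths were tried, and centring within 20 bins of transcript length or GC content was added after the data were seen. Every member is described, and named genes are those past the fold or at either end of an order, and each complex. The members, the lists and the motifs were chosen with earlier results of these data known. Python 3.11.15, pandas 2.3.3, numpy 2.4.6, scipy 1.17.1 and matplotlib 3.10.9 were used.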

Additional observations from a re-analysis of the deposited data

How the results depend on the processing

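For the KO2 over KO1 ratio, 1 member was higher and 0 lower when the tables were scaled to the same sum or against genes of like GC content. Changing the filter to means of at least 100, or to none, could not alter a member's call in either ratio. Every member was above 100 in each table. As deposited, 0 were higher and 1 lower, with a median of -0.118. At a fold of 1.1, 5 were higher and 5 lower. At a fold of 1.5, with the scale from single reads, and against genes of like transcript length, 0 were higher. For the CBFB over RUNX1 ratio, 22 were higher and 0 lower as deposited (median 0.261), 11 were higher with tables scaled to the same sum, 18 and 17 at a fold of 1.1, 2 and 0 at a fold of 1.5, and 11 and 2 against genes of like length (median 0.0948). No called value changed sign under these settings. In the 150 bases nearest the start, CHR letters were in 0% of members (6.907% of all promoters, 3.977% of those of expressed genes). RUNX letters were in 4.762%, 2 of 42 members (10.32% and 9.68%). The percentile of the median member per kb was between 82.2 and 83.8 under every length and table tried. No paired analysis was possible because the tables give no value per library, and no replicate could be left out for the same reason. Centring by length and by GC content was chosen after seeing the data.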
